A study of Mus musculus with 4 samples.

Results

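The genes described here act in homologous recombination, in the Fanconi anaemia pathway of crosslink repair, in signalling from broken DNA and stalled forks, and in mismatch repair. They were taken by name, as 36 of the 50679 genes in the deposited table, and all 36 had a single row in it. RNA came from mouse mammary tumour cells with PyMT, the polyoma middle T oncogene, in 4 libraries, 2 labelled PCNA WT and 2 labelled PCNA 211F. The column headers write the allele as Y211F, a phenylalanine in place of the tyrosine at residue 211 of PCNA, the ring-shaped clamp that tethers polymerases to DNA. Both groups share the oncogene, tumours from mice 10 weeks old, capture with an antibody to EpCAM and plating at 100000 cells in serum medium, per the labels. The promoter that drives PyMT, the number of animals behind each library and whether cells carry the allele on 1 or both chromosomes are not stated in these sources. The design text calls the libraries of a genotype independent repeats without naming animals, and the p-values below therefore measure only the spread between these libraries.

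Homologous recombination copies lost sequence from a sister chromatid: broken ends are resected, strand exchange is set up with the help of the BRCA1, PALB2 and BRCA2 proteins, and the joint molecules are then taken apart. The Fanconi pathway recognises crosslinked DNA at stalled forks, ubiquitinates FANCD2 and FANCI and hands the lesion to nucleases and recombination. Mismatch repair corrects polymerase errors, and its MSH6 and MSH3 proteins bind PCNA directly. Tyrosine phosphorylation of PCNA at the residue altered here has been reported to interfere with mismatch repair. Many of these genes are transcribed most in S phase, under E2F factors.

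The sequences upstream of 4 genes are shown because E2F-type letters were the shared promoter feature that was searched. Each is the 250 bases before the RefSeq start on GRCm38.p6, 5′ to 3′ on the strand of the gene, and capitals mark a match to TTTCCCGC, TTTGGCGC, TTTCGCGC or TTTGCCGC on either strand. In Msh3 the capitals hold overlapping matches on both strands. RefSeq and GENCODE M21 place some starts differently: by GENCODE, 174 of the 250 bases of Bard1 without its match, and 205 of the 250 of Fancg with its match, lie inside the gene, and 0 of those of Brca2 and Msh3 do.
Bard1, chr1:71102973-71103222, minus strand: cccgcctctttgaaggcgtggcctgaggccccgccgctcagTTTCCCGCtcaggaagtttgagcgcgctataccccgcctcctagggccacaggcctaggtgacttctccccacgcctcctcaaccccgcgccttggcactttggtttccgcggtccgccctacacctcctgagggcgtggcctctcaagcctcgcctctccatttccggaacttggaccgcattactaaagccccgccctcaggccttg
Brca2, chr5:150522371-150522620, plus strand: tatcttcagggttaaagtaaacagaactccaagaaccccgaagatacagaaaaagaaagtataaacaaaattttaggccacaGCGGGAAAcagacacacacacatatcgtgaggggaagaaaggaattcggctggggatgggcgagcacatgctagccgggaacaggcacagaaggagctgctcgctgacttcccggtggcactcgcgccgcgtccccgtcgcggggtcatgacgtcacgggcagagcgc
Fancg, chr4:43010302-43010551, minus strand: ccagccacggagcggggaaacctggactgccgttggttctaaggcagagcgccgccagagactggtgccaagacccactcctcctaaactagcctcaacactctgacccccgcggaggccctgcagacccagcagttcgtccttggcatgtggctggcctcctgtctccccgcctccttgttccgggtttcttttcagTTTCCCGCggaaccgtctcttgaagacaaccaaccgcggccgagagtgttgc
Msh3, chr13:92355004-92355253, minus strand: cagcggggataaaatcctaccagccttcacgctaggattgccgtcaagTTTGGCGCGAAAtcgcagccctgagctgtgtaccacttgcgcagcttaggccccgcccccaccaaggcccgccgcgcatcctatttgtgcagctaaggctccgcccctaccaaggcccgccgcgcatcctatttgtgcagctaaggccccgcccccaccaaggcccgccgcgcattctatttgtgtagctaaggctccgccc

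The search covered windows of 300 bases, from 250 before to 50 after a start, for the 28 of 36 genes that RefSeq's table matched. At least 1 match was present in 7 of the 28 (25% of genes), namely Bard1, Brca2, Rad51c, Rmi1, Fancg, Msh3 and Msh6. Among the tested genes with such a window the share was 4.93%, and among all genes with one it was 2.6%. Of 59 further genes of these pathways with a window, 7 held a match (11.9%). Of 15 S phase genes, 7 held a match (46.7%), and of 16 G2 and M genes, 1 did (6.25%). The 7 repair genes with a match had a median difference between the genotypes of -0.10 and the 21 without one 0.10, on the log2(FPKM + 1) scale used throughout. Differences were positive in 3 of the 7 and in 13 of the 21, and this contrast was not tested. A match describes the letters in this window and is not evidence of binding.

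Values are FPKM, fragments scaled by gene length and library size, with no read counts in the table. The low values fell on steps, and a step set 1 fragment in 1 kb at between 0.01656 FPKM in WT 2 and 0.03031 in 211F 2; if the columns were not rescaled, WT 2 was 1.72 times as deep as WT 1 and the 211F libraries 1.09 and 0.942 times. On that basis 35 of the 36 genes had at least 100 fragments in every library (median 1487), and the lowest was Rmi2 in 211F 2 with about 74. The libraries differed in markers of cell type and state, and the markers of WT 2 went against its epithelial label. All 12 epithelial markers reached 1 FPKM in WT 1, 0 of 12 in WT 2, 10 in 211F 1 and 11 in 211F 2, with summed levels of 1941, 3.96, 986 and 1907 FPKM; Epcam itself stood at 444, 0.893, 77.3 and 450 FPKM. Mesenchymal markers summed to 351, 3474, 4016 and 73.5 FPKM in the same order, and 10 fibroblast markers to 50.1, 1097, 277 and 5.76. Endothelial markers summed to at most 2.10 FPKM and leukocyte markers to at most 7.38; of 5 adipocyte markers Adipoq and Cidec were at 0 in all 4, and the sum was between 0.117 and 28.0. In such bulk RNA, fewer cells of a type and less RNA per cell cannot be told apart.

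The repair transcripts were present in all 4 libraries with similar summed and median levels, and none passed the test between the genotypes. Single genes varied more, with the highest library up to 3.51 times the lowest (Mlh3). The summed level of the 36 genes was 420 FPKM in WT 1 and 398 in WT 2, beside 390.0 for 211F 1 and 417 for 211F 2. Their median level was 8.28, 6.88, 7.80 and 7.97 FPKM. Msh6, which with its partner recognises single-base mismatches, was the highest of them at 29.4 to 39.4 FPKM, and Rmi2, a small subunit of the complex around the Blm helicase, was the lowest at 0.602 to 0.890. Rmi2 was the 1 gene under the filter of a mean of 1 FPKM, so 35 genes were tested.

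**Figure D1:**
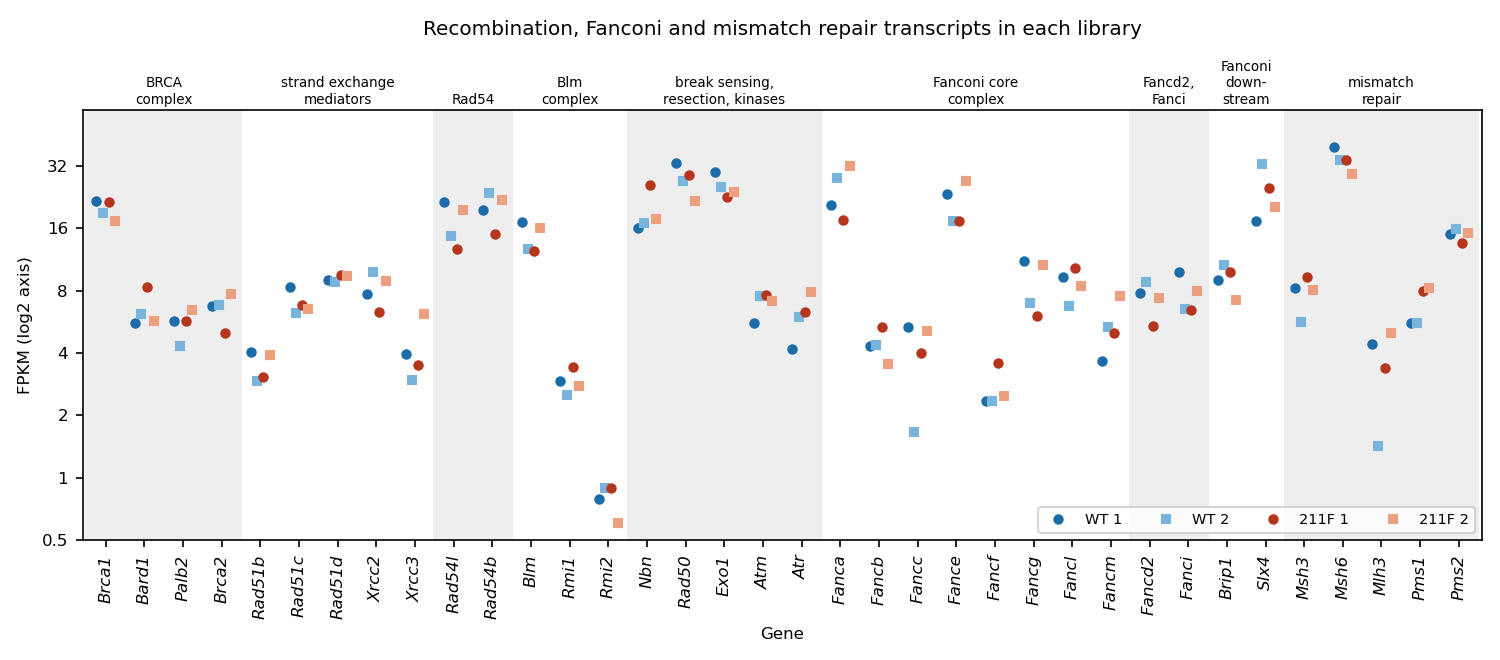
Each point is the FPKM of 1 gene in 1 library on a log2 axis, with genes grouped by role along the horizontal axis. Msh6 sits at the top (29.4 to 39.4 FPKM) and Rmi2 at the bottom (0.602 to 0.890), and the WT 2 points of Fancc (1.67) and Mlh3 (1.41) lie apart from the other libraries.

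In limma, with Benjamini-Hochberg adjustment over the 12767 genes tested, 0 of the 35 were called higher and 0 lower in 211F (0% of all genes tested in each direction), and each had an adjusted p of 0.9999. At an unadjusted p under 0.05 there were also 0 of 35, where 1.89% of all genes tested stood. The difference, 211F minus WT, was positive in 18 and negative in 17, with a median of 0.00 (0.0017), beside 0.03 for all genes tested. Both 211F libraries lay above both WT libraries in 5 genes (15.2% of all genes tested did so) and below them in 3 (11.6%), together 8 of 35 (22.9%, against 26.8% of all genes tested). Differences ran from -0.34 for Fancd2 to 0.50 for Mlh3. The median size of the difference was 0.19, beside 0.27 for all genes tested. The median gap was 0.32 between the WT libraries and 0.35 between the 211F libraries, beside 0.48 and 0.40 for all genes tested. Without WT 2 the median difference was -0.05 and again 0 of 35 were called. With 2 libraries a genotype, the smallest p of a two-sided exact permutation test is 0.333.

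**Figure D2:**
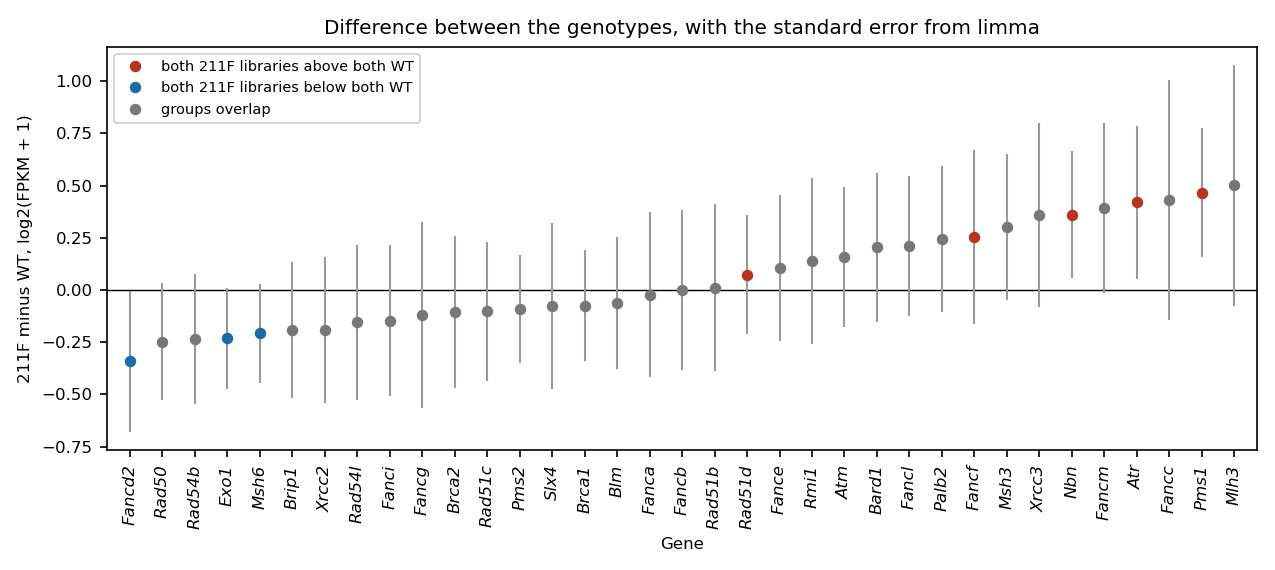
Points are the difference 211F minus WT on the log2(FPKM + 1) scale for the 35 genes tested, in order, and bars are the standard error from limma. The points run from -0.34 (Fancd2) to 0.50 (Mlh3), with 18 above and 17 below 0, and colours mark the 8 genes whose genotypes do not overlap.

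In mismatch repair, Pms1 had the largest difference of the 8 genes whose genotypes did not overlap, and Mlh3 the widest range of all 35. Coordinates here and below follow GENCODE M21 (GRCm38). Pms1, a MutL-type protein (chromosome 1, 53189187 to 53297018, minus strand), was at 5.56 and 5.60 FPKM in the WT libraries and at 7.97 and 8.21 in those of 211F (5.58 ± 0.0258 against 8.09 ± 0.171, mean ± SD, n = 2 each). Both 211F libraries lay above both WT libraries, and libraries of a genotype differed by at most 0.04 on the log2 scale. The difference was 0.47 ± 0.31 (SE; limma adjusted p = 0.9999); this SE is drawn from the spread of genes of like level and not from these 4 values alone. At about 595 to 1032 fragments a library, Pms1 was well above the lowest counts.

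Msh6 (chromosome 17, 87975062 to 87990892, plus strand) went the other way, at 39.4 and 34.3 FPKM in the WT libraries and 34.1 and 29.4 in those of 211F, which gave a difference of -0.21 ± 0.24 (SE). Its groups did not overlap, but the gap between 34.3 in WT 2 and 34.1 in 211F 1 was smaller than the gap between libraries of either genotype. Msh3, whose protein recognises insertion and deletion loops, was at 8.25 and 5.62 FPKM in the WT libraries and 9.31 and 8.02 in those of 211F, and the groups overlapped. Pms2, the main MutL-type endonuclease subunit, stayed within 13.6 to 15.9 FPKM (difference -0.09 ± 0.26, SE).

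Mlh3, a MutL-type protein with a role in meiosis as well (chromosome 12, 85234520 to 85270599, minus strand), differed most between the WT libraries in this group. WT 1 held 4.43 FPKM, WT 2 1.41, 211F 1 3.39 and 211F 2 4.97. WT 2 alone was low, so that the WT libraries stood 1.17 log2 units apart and the difference between genotypes, 0.50 ± 0.58 (SE), was no larger than its error. Without WT 2 it was -0.08, so its sign rested on that library. WT 2 is the library with epithelial markers near 0, and the part of cell state in the level of Mlh3 was not tested.

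Among the break sensing, resection and kinase genes, Atr, the kinase that answers to stalled forks (chromosome 9, 95857597 to 95951781, plus strand), was at 4.19 and 5.99 FPKM in the WT libraries and 6.29 and 7.88 in those of 211F. Both 211F libraries were higher, but WT 2 lay close to 211F 1, and the difference of 0.42 ± 0.37 (SE) was about as large as the gap between the WT libraries (0.43). Antisense genes overlap the exons of Atr, of which the highest reached 1.17 FPKM, in 211F 2. Atm, the kinase that answers to double-strand breaks, was at 5.57 and 7.55 FPKM against 7.62 and 7.12, with groups that overlapped.

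Nbn and Rad50 encode subunits of the complex that holds and trims broken ends. Nbn was at 16.0 and 17.1 FPKM in the WT libraries and 26.0 and 17.8 in those of 211F, where 211F 1 alone stood high (difference 0.36 ± 0.30, SE). Rad50 was at 33.0 and 27.1 against 28.8 and 21.7 FPKM, with overlap. Exo1, the exonuclease of both resection and mismatch repair, was at 29.8 and 25.3 FPKM in the WT libraries against 22.7 and 23.9 in those of 211F, which gave a difference of -0.23 ± 0.24 (SE). The 2 subunits thus had differences of opposite sign, 0.36 for Nbn and -0.25 for Rad50.

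**Figure D3:**
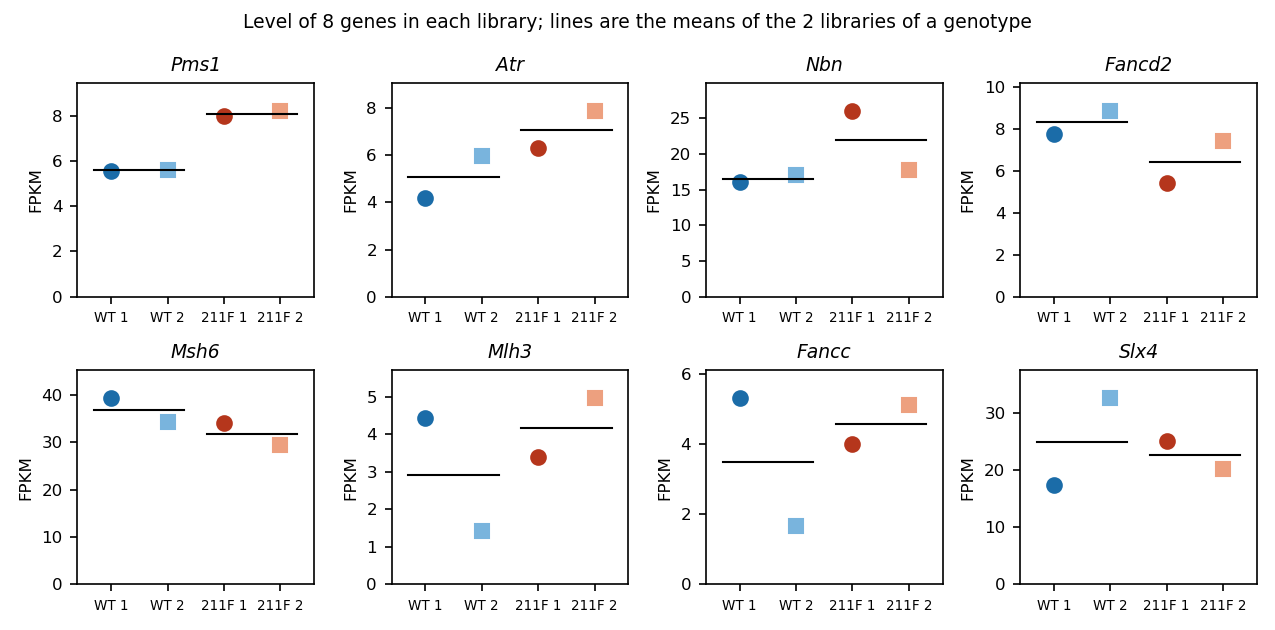
FPKM of 8 genes in each library, 1 panel a gene with its own axis from 0, and lines at the means of both libraries of a genotype. Pms1 shows tight pairs (5.56 and 5.60 against 7.97 and 8.21), while Mlh3 and Fancc are low in WT 2 (1.41 and 1.67) and Slx4 is high there (32.6).

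In the BRCA group Brca1 had the narrowest range across libraries, 0.32 log2 units, and Bard1, Palb2 and Brca2 lay between 0.49 and 0.54. Brca1, the ubiquitin ligase subunit that promotes resection and loading, was at 21.8 and 18.9 FPKM in the WT libraries and 21.3 and 17.3 in those of 211F (difference -0.07 ± 0.27, SE), and its partner Bard1 at 5.58 and 6.17 against 8.37 and 5.68. Palb2, the bridge between both BRCA proteins, was at 5.69 and 4.32 against 5.68 and 6.49 FPKM. Brca2, which prepares resected ends for strand exchange, was at 6.74 and 6.82 against 4.98 and 7.71, so the 211F libraries lay on either side of the WT values. In FPKM, which is per length, Brca1 stood at 19.8 on average and Bard1, Palb2 and Brca2 between 5.54 and 6.56.

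Rad51b, Rad51c, Rad51d, Xrcc2 and Xrcc3, related genes whose products assist strand exchange, ranged from 2.92 FPKM (Rad51b in WT 2) to 9.88 (Xrcc2 in WT 2). Rad51d was the steadiest of the 35 genes, at 9.05 and 8.80 FPKM in the WT libraries and 9.50 and 9.37 in those of 211F; the groups did not overlap, yet the difference was 0.07 ± 0.28 (SE). Rad51c was at 8.32 FPKM in WT 1 and 6.23 to 6.78 elsewhere, and Rad51b at 2.92 to 4.04. Xrcc2 was lower in 211F 1 (6.33) than in the other libraries (7.72 to 9.88). Xrcc3 was higher in 211F 2 (6.17) than elsewhere (2.97 to 3.94), with a difference of 0.36 ± 0.44 (SE) that was 0.02 without that library.

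Rad54l and Rad54b encode translocases that help strands pair. Both were lowest in 211F 1, at 12.7 and 15.0 FPKM, against 14.6 to 21.5 for Rad54l and 19.6 to 23.7 for Rad54b in the other libraries. Exons of Rad54b overlap by 2068 bases those of Fsbp on the same strand, at 0.827 to 1.38 FPKM. Those of Rad54l overlap by 1184 bases Lrrc41 on the other strand, at 20.2 to 27.7 FPKM. Sharing of reads was not tested for either gene. Blm, the helicase that dissolves joined molecules, was at 17.2 and 12.8 FPKM in the WT libraries and 12.5 and 16.1 in those of 211F. Its partners were lower: Rmi1 was at 2.50 to 3.44 FPKM, and Rmi2 at 0.786 and 0.890 in WT and 0.889 and 0.602 in those of 211F. Exons of Rmi1 overlap Hnrnpk on the other strand, which stood at 532 to 719 FPKM, so the level of Rmi1 is uncertain where counting ignored strand.

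The 8 Fanconi core genes, whose products form the ubiquitin ligase of the pathway, had 6 positive and 2 negative differences. Among all 12767 genes tested, 6778 were positive and 5989 negative. Of the 6, Fancb was at 0.0017, and Fance and Fancc turned to -0.10 and -0.19 without WT 2. Fance and Fanca were the most abundant, at 17.3 to 27.1 and 17.6 to 31.8 FPKM. Fanca spread more within 211F (17.6 and 31.8) than between the genotypes (-0.02 ± 0.40, SE). Fancf, a small adaptor subunit, was at 2.35 and 2.34 FPKM in the WT libraries and 3.58 and 2.47 in those of 211F, so that 211F 1 made most of its difference of 0.26 ± 0.42 (SE). Fancl, the catalytic subunit, was at 6.74 to 10.3 FPKM, Fancg at 6.01 to 11.2, Fancb at 3.55 to 5.32 and Fancm, the translocase that anchors the complex, at 3.65 to 7.51. Exons of Fanca overlap by 920 bases those of Zfp276 on the other strand, at 8.12 to 10.4 FPKM. Those of Fancl overlap by 462 bases Vrk2 on the other strand, at 8.13 to 18.3 FPKM. Sharing of reads was not tested for Fanca or Fancl.

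Fancc (chromosome 13, 63285043 to 63497278, minus strand) stood out in WT 2. WT 1 held 5.32 FPKM, WT 2 1.67, 211F 1 4.01 and 211F 2 5.13. As for Mlh3, the difference of 0.43 ± 0.58 (SE) turned to -0.19 without WT 2. Exons of Fancc overlap by 185 bases those of 2010111I01Rik on the other strand, which held 28.2, 5.66, 16.6 and 21.9 FPKM respectively, so both genes were lowest in WT 2; whether reads were shared was not tested.

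Fancd2 and Fanci, the pair that the core complex ubiquitinates, were both lowest in 211F 1. Fancd2 was at 7.77 and 8.85 FPKM in the WT libraries and 5.39 and 7.41 in those of 211F, without overlap (difference -0.34 ± 0.34, SE), and Fanci at 9.84 and 6.55 against 6.47 and 7.93. Downstream of them, Brip1, a helicase bound to BRCA1, was at 8.98 and 10.6 against 9.79 and 7.22 FPKM. Slx4, the scaffold for nucleases that unhook a crosslink, was at 17.4 FPKM in WT 1 and 32.6 in WT 2, and at 25.2 and 20.2 in those of 211F. Both 211F values of Slx4 therefore lay between those of WT.

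Across the 4 libraries these genes had narrower ranges than the median gene tested, which is given as a description with no test. The median distance between the highest and the lowest library was 0.54 log2 units for the 35 genes, 0.82 for all genes tested and 0.82 for the 7574 genes tested in the same band of mean level. With no filter on low values the set of all genes grew from 12767 to 25743, adding genes averaging under 1 FPKM. The log2(FPKM + 1) scale understates changes of such genes. There the order turned, at 0.54 for the repair genes and 0.46 for all genes, but these sets were unlike in level. The distance exceeded 1 unit in 2 of 35 (5.71%; Mlh3 and Fancc), beside 40.0% of all genes tested, and it was below the median of all genes tested in 30 of 35. The median distance was 0.57 for 70 further genes of these pathways, described below, with 8 (11.4%) at 1 unit or more. S phase genes had a median of 0.51 and G2 and M genes 0.74, against 6.61 for the epithelial and 5.05 for the mesenchymal markers tested. The median level of 20 S phase genes was 37.4, 34.9, 33.7 and 30.8 FPKM, again with the WT libraries first, and that of 20 G2 and M genes 66.8, 88.6, 64.0 and 76.1. Setting each WT library against each 211F library, the number of the 35 genes at least 1 unit apart was 0 in 3 pairs and 2 in WT 2 with 211F 2, whereas 10.4% to 24.7% of all genes tested were that far apart.

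**Figure D4:**
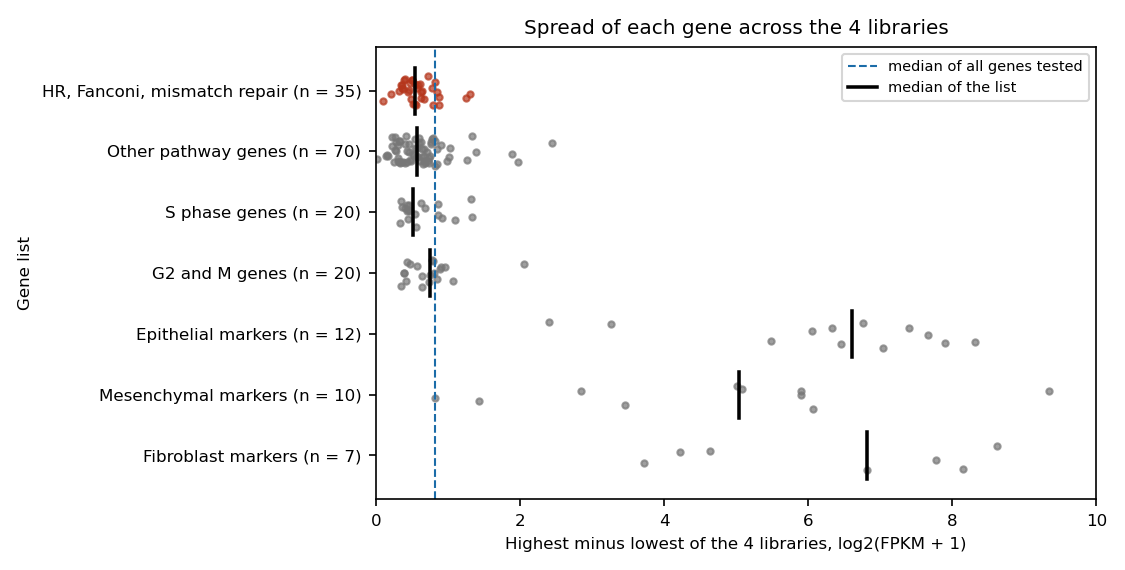
Points are genes, placed by the distance between their highest and lowest library in log2(FPKM + 1); thick lines are list medians and the dashed line is the median of all genes tested (0.82). The 35 repair genes centre on 0.54 and reach 1.31, while epithelial markers centre on 6.61.

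Which libraries were low differed from gene to gene. WT 2 and 211F 1, the libraries with the highest mesenchymal sums, held the 2 lowest values in 10 of 35 (28.6%, beside 24.7% of all genes tested), among them Mlh3, Fancc, Fance, Palb2 and Xrcc3. The lowest value fell in WT 2 for 12 genes (34.3%, beside 29.1% of all genes tested) and in 211F 1 for 11 (31.4%, beside 23.1%). It fell in WT 1 for 7 (20%, beside 27.5%) and in 211F 2 for 5 (14.3%, beside 20.2%). The highest fell in WT 1 for 11 (31.4%, beside 21.2%) and in WT 2 for 6 (17.1%, beside 30.2%). It fell in each 211F library for 9 (25.7%), beside 22.4% for 211F 1 and 26.2% for 211F 2.

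Several of these genes start back to back with another gene. A protein-coding gene on the other strand started within 1000 bases, pointing away, for 13 of the 36 (36.1%), beside 1942 of 11653 protein-coding genes tested (16.7%; GENCODE M21 on GRCm38). Brca1 starts 194 bases from Nbr1, an autophagy receptor, which was at 55.0 and 62.2 FPKM in the WT libraries and 41.7 and 37.6 in those of 211F (-0.55 ± 0.22, SE; limma adjusted p = 0.9999) while Brca1 differed by -0.07. Pms1 starts 77 bases from Ormdl1, a regulator of sphingolipid synthesis, at 10.7 and 9.48 against 12.4 and 15.3 FPKM, so both genes of that pair were higher in both 211F libraries. Pms2 and Aimp2, a tRNA synthetase scaffold, start 117 bases apart, and Aimp2 was at 54.4 and 63.2 against 98.6 and 69.0 FPKM (0.49 ± 0.28, SE), where Pms2 differed by -0.09.

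Fancd2 starts 30 bases from Emc3, a membrane insertase subunit, at 43.8 and 59.6 against 53.0 and 59.4 FPKM, and Atm 307 bases from Npat, an activator of histone genes, at 10.6 and 12.6 against 14.6 and 13.6. The pairs thus did not all lie in the same direction: Pms1 with Ormdl1 did, and Fancd2 with Emc3 did not. A second gene, Gm28778, starts 93 bases from Pms1, at 4.55 and 3.48 against 3.82 and 1.82 FPKM. Its difference of -0.43 was opposite in sign to that of Pms1.

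Other genes of these pathways gave the same count. In limma 0 of 70 further genes of resection, joint molecule nucleases, Fanconi accessory factors, checkpoint, BRCA1-A complex and end joining passed in either direction, and 0 had an unadjusted p under 0.05. Of the 70, 44 differences were positive and 26 negative (median 0.07), beside 6778 positive and 5989 negative of the 12767 genes tested. Genotypes did not overlap in 21 (30%, beside 26.8% of all genes tested), 12 higher and 9 lower. The smallest unadjusted p was that of Ercc1, a nuclease subunit of crosslink repair, at 19.1 and 17.3 FPKM in the WT libraries and 30.4 and 24.8 in those of 211F (0.57 ± 0.26, SE).

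In end joining, which had the highest such share of the 6 lists and was singled out for it after the values were seen, genotypes did not overlap in 7 of 12 genes (58.3%, beside 26.8% of all genes tested), 4 higher and 3 lower in 211F. Xrcc4, the ligase partner, was at 5.91 and 11.6 FPKM against 15.5 and 16.3 (0.86 ± 0.41, SE), and Xrcc6, which encodes Ku70, at 52.7 and 58.6 against 47.6 and 37.3. Trp53bp1, which shields ends from resection, was at 43.5 and 38.3 FPKM in the WT libraries and 30.9 and 27.1 in those of 211F (-0.48 ± 0.23, SE). For each of these the adjusted p was 0.9999 in limma.

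Tonsl, which acts in recombination at stalled forks, was at 81.4 and 78.4 FPKM in the WT libraries and 40.6 and 64.1 in those of 211F. Dna2, a resection nuclease, was at 5.77 and 2.30 against 7.24 and 7.63, with WT 2 again the lowest. Usp1, which removes ubiquitin from FANCD2 and from PCNA, was at 53.3 and 52.5 FPKM against 70.6 and 67.1 (0.37 ± 0.20, SE), and Faap24, a partner of FANCM, at 7.66 and 6.94 against 9.25 and 12.3. Fancd2 itself lay in the opposite direction to Usp1, and neither passed the test.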

How the data were processed

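The deposited table holds FPKM per Ensembl gene for 4 libraries, made by the authors. TopHat2 2.0.13, DESeq2 and GRCm38 appear, without their roles, per the submitters' processing notes; which program, annotation and strand setting gave the FPKM values: not given in the sources used here. The kit marks strand, per the labels' protocols. Symbols matched 50369 of 50679 identifiers. Exons of 12 of the 36 genes overlap another gene that reaches 1 FPKM, so reads could be shared. These are Xrcc3, Rad54l, Rad54b, Rmi1, Atr, Fanca, Fancc, Fancf, Fancl, Fanci, Msh3 and Msh6.

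Values were analysed as log2(FPKM + 1), which understates changes of low genes. The 12767 genes averaging 1 FPKM or more were fitted on genotype alone with limma 3.58.1 in R 4.3.3. The fit was two-sided, with a trend in the prior variance and a threshold of 0.05. It was also run on simulated data with noise independent between genes, whereas these libraries differed in many markers at once. That run therefore does not show how many changes could be found in these libraries. All members are named; values per library go to members that do not overlap by at least 0.4, the extremes in level and range, and examples of each role, and of other pathway genes to the 8 of smallest p; further values were printed after they were seen. A search of protein sequences was planned and not run, and some items are not reported here. The members and lists were chosen with earlier results of these data known. Alternatives covered pseudocount, filter, rescaling, trend, replicate block and each library left out.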

Additional observations from a re-analysis of the deposited data

How the results depend on the processing

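In limma 0 genes and 0 of the repair genes were called in each of the 12 alternatives run, in which the smallest adjusted p of a repair gene was 0.808. At an unadjusted p under 0.05 stood 241 genes, but 142 with the replicate block, 745 without a filter on low values, and 226 to 843 without 1 library, the highest without WT 1. The labels do not say that replicate numbers pair libraries, and the deviations of libraries that share a number correlated at r = -0.465 over genes; the replicate block changed no call. The median difference of the repair genes lay between -0.08 and 0.11. By construction fewer libraries give a narrower range. The median range of the repair genes was 0.37 with a pseudocount of 5 (0.61 for all genes tested) and 0.41 to 0.49 without 1 library. With no filter it was 0.54, above the 0.46 of all genes, a set that then grew to 25743 by genes averaging under 1 FPKM. Of 413 differences of single genes, 31 changed sign, in 19 of 35 genes. Fancb was at -0.0028 with a pseudocount of 0.1 and -0.027 with median-ratio rescaling, where Rad51b was at -0.018. Without 1 library the differences ran as follows: Fance -0.20 to 0.41, Rad51c -0.29 to 0.0801, Brca1 -0.22 to 0.0692, Mlh3 -0.0835 to 1.08, Fancc -0.19 to 1.05, Bard1 -0.0403 to 0.45, Fancg -0.49 to 0.25, Rad54l -0.45 to 0.14, Xrcc2 -0.41 to 0.0271, Blm -0.27 to 0.14, Fanca -0.43 to 0.39, Atm -0.0322 to 0.35, Brip1 -0.39 to 0.003, Fanci -0.41 to 0.11, Slx4 -0.51 to 0.36, Brca2 -0.38 to 0.16, Fancb -0.24 to 0.24, Rad51b -0.17 to 0.19, Rad54b -0.49 to 0.0242. These fits assume that a genotype left with 1 library varies as the remaining one does. The other 16 genes did not change sign, but each of them except Pms1 and Rad51d moved by over 1.5 times without 1 library: Fancl 0.0026 to 0.42, Msh6 -0.31 to -0.11, Msh3 0.0606 to 0.54, Rad51d 0.0542 to 0.0913, Rad50 -0.44 to -0.052, Xrcc3 0.0217 to 0.70, Pms1 0.45 to 0.49, Nbn 0.0973 to 0.62, Atr 0.20 to 0.63, Fancd2 -0.54 to -0.14, Rmi1 0.0172 to 0.26, Exo1 -0.35 to -0.12, Palb2 0.0794 to 0.41, Fancm 0.14 to 0.65, Pms2 -0.16 to -0.02, Fancf 0.0554 to 0.46. Depth was estimated from steps only, and 2 libraries a genotype limit what could be called.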

Other observations

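Among the other Fanconi genes, the widest ranges were in Faap100 and Cenpx. Faap100, a core complex partner, was at 21.4 and 7.95 FPKM in the WT libraries and 8.85 and 34.1 in those of 211F. Cenpx, a DNA-binding partner of FANCM, was at 44.1 and 33.1 against 16.6 and 94.4 FPKM. Both lie toward the end of chromosome 11 (GRCm38, 120369055 to 120378764 for Faap100 and 120710942 to 120713738 for Cenpx), as do 2 proliferation genes with the same libraries highest and next highest: Birc5, at 271 and 157 against 115 and 483 FPKM, and Tk1, at 178 and 121 against 83.9 and 212. In all 4 genes 211F 2 was highest and WT 1 next, and these genes were singled out after their values were seen. WT 2 and 211F 1 were the 2 lowest libraries in 24.7% of all genes tested. That share also counts genes with WT 1 above 211F 2.

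Of the 36 repair genes, 6 are on chromosome 11, all starting before these: Fancl, Rad50, Rad51d, Brip1, Rad51c and Brca1. Their ranges across libraries were between 0.10 (Rad51d) and 0.58 (Rad50) log2 units, against 1.33 for Tk1, 1.97 for Faap100, 2.05 for Birc5 and 2.44 for Cenpx.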
